A study of Mus musculus with 10 samples.

Results

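The comparison described here is between bone-marrow-derived macrophages given AmTARS and those given Pam3CSK4, each for 3 h. It uses 2 libraries of each, 4 of the 10 libraries in the series, and every gene with a mean level of at least 1 CPM (reads of a gene scaled to library size) over the 10 libraries, 11407 of the 11617 genes listed. The remaining groups are untreated cells and the same agents at 1 h, with 2 libraries each, and they served as reference. All cells came from the bone marrow of C57BL/6 mice and were grown in medium with GM-CSF (50 ng/ml), which drives myeloid growth, and 10% fetal bovine serum. The age of the mice is 7 weeks in the growth protocol and 6 weeks in the label of origin. The dose of AmTARS is labelled 0.5 with the unit written as mm, Pam3CSK4 was used at 10 ng/ml, and how these doses relate in potency is not given in the sources used here. Every difference below is therefore between 1 dose of each agent. The labels give no time for the untreated cells, and they do not say whether replicates were separate cultures or animals, so p-values measure the spread between these libraries, which may be technical.

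AmTARS is an enzyme of Akkermansia muciniphila, a bacterium of the gut mucus, and charges tRNA with threonine. The lipopeptide Pam3CSK4 is made by synthesis, carries 3 acyl chains and is sensed by Toll-like receptor 2 (TLR2) together with TLR1. When TLR2 is engaged on a macrophage, the adaptor MyD88 and the IRAK kinases relay the signal to the kinases that free the transcription factor NF-kB from its inhibitors and to the MAP kinases. NF-kB then drives chemokine and cytokine genes, and with them the genes of its own inhibitors, which end the response. Whether a bacterial tRNA synthetase and a classical TLR2 lipopeptide give the same transcriptional response is the question the ligand comparison addresses.

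The libraries of the 3 h groups held 34186338 to 37559810 reads in listed genes. Macrophage genes were abundant: the 9 listed markers summed to 52055 to 55607 CPM in these 4 libraries. Most of this sum was Lyz2 alone, at 43830 to 46773 CPM, and Csf1r was at 2108 to 2368 CPM. Of 8 dendritic cell markers Ccr7 alone was listed, at 6.34 to 9.96 CPM, and none of 6 erythroid markers was listed. The 8 listed neutrophil genes summed to 2144 and 2244 CPM with AmTARS and to 2342 and 2752 CPM with Pam3CSK4, and 6 fibroblast genes to 1361 to 1554 CPM over both groups. Since RNA was taken from whole cultures, fewer cells of a type and less RNA per cell cannot be told apart. The pair of Pam3CSK4 3 h libraries differed from each other more than those of any other group, with a chi-square per degree of freedom of 7.50 against 3.58 to 4.63. Replicate 3 was above replicate 2 in 77 of the 79 genes at least 2-fold lower with AmTARS, against 50.3% of all genes tested, and below it in 768 of the 917 genes higher with AmTARS. Key counts are given without each of these libraries for that reason.

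Between the ligands at 3 h, 1953 genes passed an adjusted p of 0.05 (limma on log2(CPM + 1), Benjamini-Hochberg over all genes tested), 17.1% of those tested. The 2 groups did not overlap in 6286 genes (55.1%). Lower with AmTARS were 1036 genes (9.08%) and higher were 917 (8.04%). The balance turned with the scaling: 892 were lower and 1062 higher after quantile normalization, and 866 lower and 996 higher with CPM rescaled to the listed genes. Without Pam3CSK4 replicate 3 they were 691 lower and 450 higher. The sizes were unequal: 79 genes were at least 2-fold lower with AmTARS and 3 were at least 2-fold higher. Against the shared untreated libraries, AmTARS changed 4186 genes (36.7%) and Pam3CSK4 5576 (48.9%). The AmTARS count was 1997 without AmTARS 3 h replicate 1 and 2313 without untreated replicate 2. Without Pam3CSK4 replicate 3, 1141 genes passed, of which 1092 passed in the same direction with all libraries. Without Pam3CSK4 replicate 2, 2103 passed, and without AmTARS replicate 1, 1193. The 82 genes that differed at least 2-fold passed again in each alternative analysis, except that under a filter of 5 CPM only 74 of them were tested, and these passed.

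**Figure D1:**
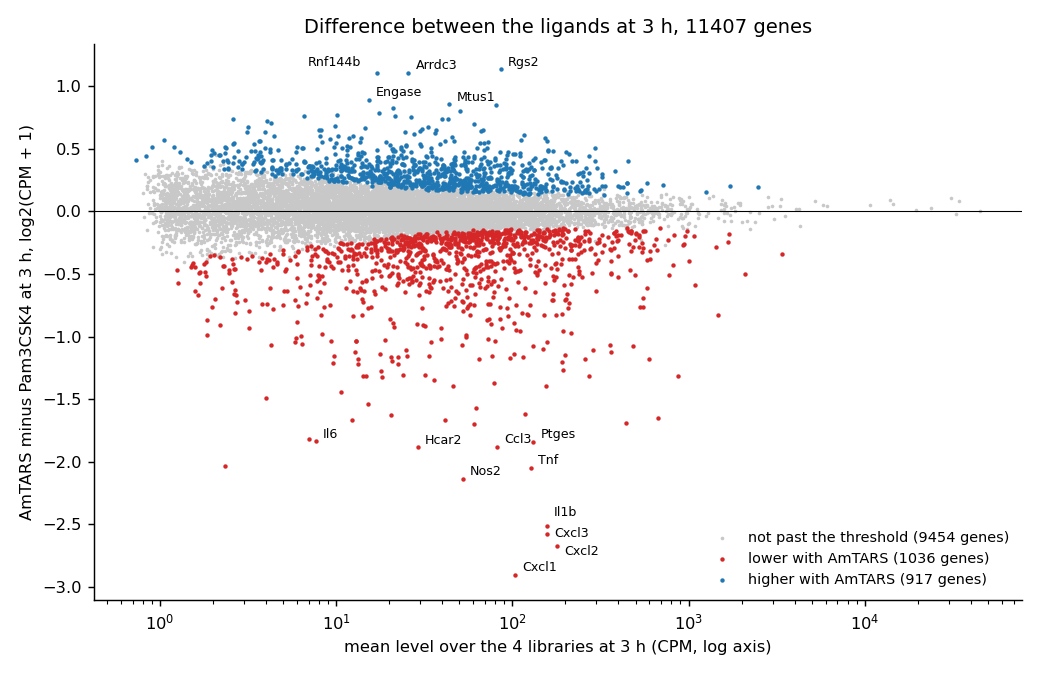
Each point is a gene; the x axis is the mean level over the 4 libraries at 3 h (CPM, log axis) and the y axis the difference AmTARS minus Pam3CSK4 on the log2(CPM + 1) scale. The 1036 red genes reach down to -2.90 (Cxcl1), whereas the 917 blue genes reach up to 1.14 (Rgs2).

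The widest gaps between the ligands were in the neutrophil-attracting chemokines Cxcl1, Cxcl2 and Cxcl3, which lie close together on chromosome 5. The stretches just upstream of their start sites are shown because the 3 genes share a word there, together with that of Nfkbia, which encodes the inhibitor IkB-alpha. Sequences are RefSeq promoter windows of build GRCm38.p6 (mm10), 120 bases ending at the base before the start site, read 5′ to 3′ on the strand of the gene. Capitals mark bases covered by a match to GGGANNTTCC, a form of the NF-kB site, on either strand.
Cxcl1 (chr5:90891125-90891244, + strand): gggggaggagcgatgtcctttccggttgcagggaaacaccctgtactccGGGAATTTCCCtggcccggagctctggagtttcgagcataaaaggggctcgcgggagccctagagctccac
Cxcl2 (chr5:90903779-90903898, + strand): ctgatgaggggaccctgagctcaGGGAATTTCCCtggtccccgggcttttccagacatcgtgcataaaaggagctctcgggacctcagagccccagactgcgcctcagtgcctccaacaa
Cxcl3 (chr5:90785981-90786100, + strand): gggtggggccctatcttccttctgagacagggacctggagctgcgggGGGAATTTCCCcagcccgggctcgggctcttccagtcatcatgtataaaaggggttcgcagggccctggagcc
Nfkbia (chr12:55492648-55492767, - strand): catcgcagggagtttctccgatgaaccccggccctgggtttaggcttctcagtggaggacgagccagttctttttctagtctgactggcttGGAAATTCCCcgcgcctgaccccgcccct
The match begins 71 bases before the start site in Cxcl1, 97 in Cxcl2, 73 in Cxcl3 and 29 in Nfkbia, where it reads on the opposite strand. In the 3 chemokine genes the word matches on both strands with an offset of 1 base, so that GGGAATTTCC on the printed strand and GGGAAATTCC on the other overlap.

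Over whole windows of 250 bases before to 50 after the start, GGGANNTTCC on either strand occurred in 143 of the 9241 tested genes with a RefSeq window (1.55%). Among the genes at least 2-fold lower with AmTARS it occurred in 6 of 65 with a window (9.23%), which were Cxcl1, Cxcl2, Cxcl3, Nfkbia, Il6 and Cxcl10. Since Cxcl1, Cxcl2 and Cxcl3 lie close together and share the same word, the 6 are not independent cases. The looser word GGGANNNNCC, which contains every GGGANNTTCC, occurred in 22 of the same 65 windows (33.8%), in 4 of 10 windows of the 15 genes named as higher with AmTARS and in 26.3% of all. The AP-1 word TGANTCA, a palindrome, occurred in 11 of the 65 (16.9%) and in 5.0% of all. These are letter matches in a fixed window and no binding was measured.

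Most chemokine genes were lower with AmTARS. Of 24 written in the list 19 were tested and the others were not analysed here. Of these 19, 14 were lower with AmTARS than with Pam3CSK4 and none was higher, with a median difference of -0.83 against 0.01 over all genes. Against untreated cells AmTARS raised 9 and Pam3CSK4 16. Over all genes tested AmTARS raised 18.8% and lowered 17.9%, and Pam3CSK4 raised 24.7% and lowered 24.2%.

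Cxcl1 stood at 22.5 and 24.1 CPM with AmTARS and at 149 and 219 CPM with Pam3CSK4, against 12.6 and 12.01 CPM in untreated cells. Both Pam3CSK4 libraries were far above all others, and the AmTARS libraries were above the untreated ones. The log2 difference was -2.90 ± 0.11 (SE; adjusted p = 3.22e-13), which is a 7.90-fold higher mean with Pam3CSK4. For Cxcl2 the levels were 47.1 and 46.7 CPM with AmTARS, 252 and 369 CPM with Pam3CSK4 and 16.7 and 18.8 CPM untreated. Cxcl3 gave 45.3 and 42.9 CPM with AmTARS, 219 and 326 CPM with Pam3CSK4 and 23.6 and 24.3 CPM untreated. In both genes the groups were ordered untreated, AmTARS, Pam3CSK4 without overlap, with ligand differences of -2.68 ± 0.11 for Cxcl2 and -2.57 ± 0.11 for Cxcl3.

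Ccl3 encodes MIP-1 alpha, an attractant of monocytes and lymphocytes. It was at 34.8 and 33.03 CPM with AmTARS, against 29.2 and 30.9 CPM untreated, a change of 0.17 ± 0.11 that did not pass (adjusted p = 0.244). With Pam3CSK4 it reached 104 and 155 CPM, and the ligand difference was -1.88 ± 0.11 (adjusted p = 1.59e-10). Cxcl10, an attractant of T cells, was 11.5 and 12.8 CPM with AmTARS and 26.04 and 32.6 CPM with Pam3CSK4, against 4.80 and 6.23 CPM untreated. Ccl22 moved apart in opposite directions from untreated cells, by -0.21 with AmTARS (adjusted p = 0.0392) and by 0.62 with Pam3CSK4 (adjusted p = 2.41e-06). Pf4, platelet factor 4, rose with both agents, by 0.50 with AmTARS and 0.55 with Pam3CSK4. Its ligand difference had a 95% interval of -0.19 to 0.09.

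**Figure D2:**
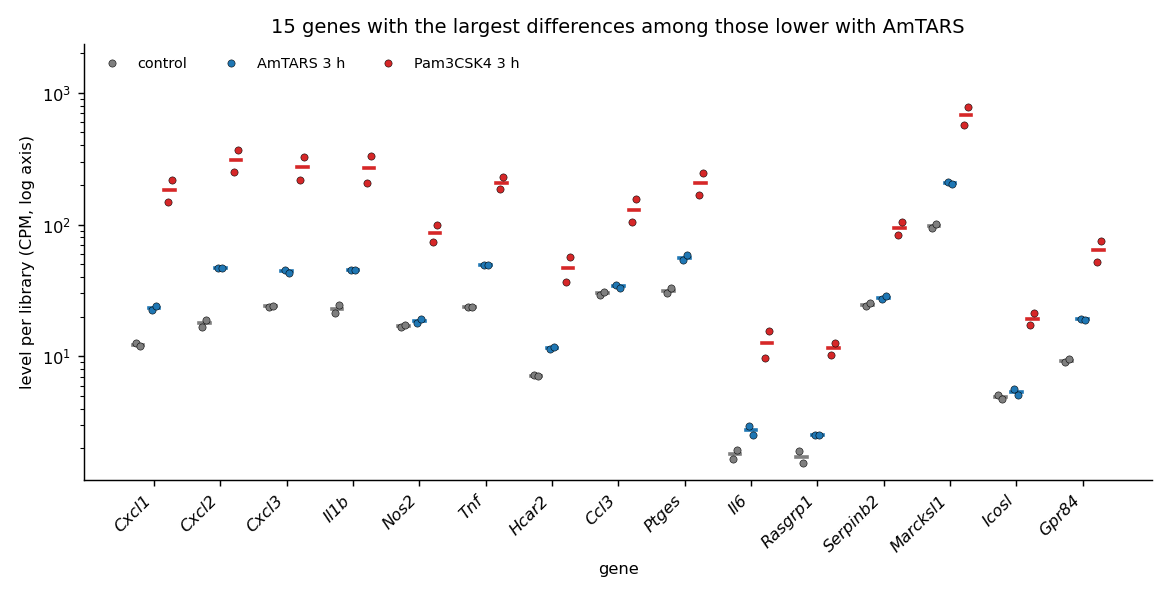
Level of 15 genes (CPM, log axis) in untreated cells (grey), AmTARS at 3 h (blue) and Pam3CSK4 at 3 h (red); points are the 2 libraries of each group and bars their mean. In all 15 genes both red points lie above both blue points, which the choice of genes required. For Cxcl1 they are 149 and 219 CPM against 22.5 and 24.1 CPM.

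Of 18 cytokine genes tested 13 were lower with AmTARS than with Pam3CSK4 and none was higher, with a median of -0.58. Against untreated cells AmTARS raised 8 and lowered 2, and Pam3CSK4 raised 13 and lowered 1. Il1b, the precursor of interleukin-1 beta (chr2:129364570-129371139, - strand in GENCODE M21), was 45.2 and 45.1 CPM with AmTARS and 206 and 332 CPM with Pam3CSK4, against 21.5 and 24.6 CPM untreated. The AmTARS libraries nearly coincided while the Pam3CSK4 pair was spread, and the groups did not overlap. Its ligand difference was -2.51 ± 0.13 (adjusted p = 1.29e-11). It was -2.17 without Pam3CSK4 replicate 3 and -2.85 without replicate 2.

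Tnf encodes tumor necrosis factor. The levels were 49.00 and 49.1 CPM with AmTARS, 186 and 228 CPM with Pam3CSK4 and 23.7 and 23.6 CPM untreated, a ligand difference of -2.05 ± 0.07 (adjusted p = 1.68e-13). AmTARS thus gave a rise of 1.02 and Pam3CSK4 of 3.07 on the log2 scale over the shared untreated cells. Il6, a cytokine of the acute phase, was low everywhere: 2.97 and 2.52 CPM with AmTARS, 9.79 and 15.5 CPM with Pam3CSK4 and 1.66 and 1.95 CPM untreated. The change with AmTARS was 0.41 ± 0.17 (adjusted p = 0.065), that with Pam3CSK4 2.25 ± 0.17 (adjusted p = 2.04e-09) and the ligand difference -1.83 ± 0.17 (adjusted p = 1.02e-07). Il12a, a subunit of interleukin-12, differed by -1.49 ± 0.14, and Il1a by -1.27 ± 0.11. Il12b, the subunit shared by interleukins 12 and 23, was at 1.48 and 1.63 CPM with AmTARS and 2.38 and 3.52 CPM with Pam3CSK4, a difference of -0.61 ± 0.17 (adjusted p = 0.0137) that did not pass without AmTARS replicate 1 (adjusted p = 0.0939) or without Pam3CSK4 replicate 3 (adjusted p = 0.237). Osm and Tgfb1 rose with both agents, and the 95% interval of their ligand difference included 0: -0.35 to 0.10 for Osm and -0.17 to 0.03 for Tgfb1.

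Il10, the anti-inflammatory cytokine, had a mean of 0.879 CPM over all libraries and was below the level for testing. It was listed at 0.755 and 0.428 CPM with AmTARS, which were 28 and 16 reads. With Pam3CSK4 it was at 0.999 and 1.14 CPM, which were 34 and 41 reads, and in untreated cells at 0.485 and 0.614 CPM. In the analysis without a filter on low values the ligand difference was -0.38 ± 0.16 (SE, limma), with an adjusted p of 0.108 and a 95% interval of -0.71 to -0.06. The difference in Il10 between the ligands therefore did not pass.

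The subunits of NF-kB and the genes that switch it off were almost all lower with AmTARS. Of 22 tested genes 19 were lower with AmTARS and none was higher, with a median of -0.76. Against untreated cells AmTARS raised 17 of them and Pam3CSK4 19, with median changes of 0.31 and 1.21. Nfkbiz encodes IkB-zeta, a co-factor that NF-kB needs at secondary genes such as Il6. It was at 30.01 and 31.99 CPM with AmTARS and 88.9 and 99.1 CPM with Pam3CSK4, against 21.3 and 20.4 CPM untreated, a difference of -1.57 ± 0.06 (adjusted p = 9.6e-13). Tnfaip3 encodes A20, a brake on the pathway, and was at 59.2 and 60.04 CPM with AmTARS, 128 and 143 CPM with Pam3CSK4 and 49.2 and 47.2 CPM untreated. The AmTARS libraries lay nearer to the untreated ones than to the Pam3CSK4 ones. Nfkbia, whose upstream stretch is printed above, differed by -1.11 ± 0.05 and its relative Nfkbie by -1.16 ± 0.06. Traf1, an adaptor of TNF receptors, differed by -1.16 ± 0.07 and Zc3h12a, an endonuclease that degrades cytokine mRNA, by -0.82 ± 0.06. Otulin, which trims linear ubiquitin chains, rose a little with both agents and its ligand difference was 0.03 ± 0.06, with an interval of -0.10 to 0.16.

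Upstream of NF-kB, 5 of 20 receptor and MyD88 pathway genes were lower with AmTARS (25%, against 9.08% of all genes) and none was higher, with a median of -0.10. The members that differed most were the receptors themselves. Tlr2, the receptor, stood at 364 and 365 CPM with AmTARS, 759.8 and 896 CPM with Pam3CSK4 and 245 and 249 CPM untreated, a difference of -1.18 ± 0.06 (adjusted p = 7.65e-12). Its co-receptor Tlr1 was 31.8 and 35.1 CPM with AmTARS and 52.1 and 59.3 CPM with Pam3CSK4, a difference of -0.72 ± 0.07. The change of Tlr1 with AmTARS itself was 0.19 (adjusted p = 0.048). Cd14, which hands lipids to TLR2 and TLR4, differed by -0.83 ± 0.07, and the kinase Irak2 by -0.61 ± 0.05. Other Toll-like receptors went the other way from untreated cells: all 6 tested fell with Pam3CSK4 and 5 fell with AmTARS. Tlr13, a sensor of bacterial RNA, was at 299 and 300.2 CPM with AmTARS, 257 and 228 CPM with Pam3CSK4 and 346 and 342 CPM untreated, a ligand difference of 0.31 ± 0.05 (adjusted p = 0.000158). For Tlr4, the receptor of lipopolysaccharide, the changes were -0.59 and -0.66 and the ligand difference had an interval of -0.07 to 0.21.

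Genes of the inflammatory (M1) macrophage state had the lowest median of any list, -1.18, with 15 of 17 lower with AmTARS and none higher. Several of these also belong to the chemokine and cytokine lists. Nos2, the inducible nitric oxide synthase (chr11:78920787-78960254, + strand), was 18.04 and 19.1 CPM with AmTARS and 16.6 and 17.2 CPM in untreated cells, a change of 0.13 ± 0.10 that did not pass (adjusted p = 0.32). With Pam3CSK4 it was 73.2 and 99.1 CPM, 4.63-fold above the AmTARS mean, a log2 difference of -2.14 ± 0.10 (adjusted p = 4.37e-12). Irg1, which encodes the enzyme that makes itaconate, was raised by both agents, to 309 and 332 CPM with AmTARS and to 882 and 1154 CPM with Pam3CSK4 from 179 and 179 CPM. Sod2, mitochondrial superoxide dismutase, differed by -1.08 ± 0.07, and Slc7a2, which imports arginine, by -0.95 ± 0.06. Slc7a2 fell with AmTARS (-0.26) and rose with Pam3CSK4 (0.69). In the nitric oxide, itaconate and antimicrobial list 11 of 19 were lower with AmTARS and none was higher. Cyba, a subunit of the NADPH oxidase, rose alike, by 0.44 with AmTARS and 0.48 with Pam3CSK4, with an interval of -0.14 to 0.07 for the difference. The M1 markers Cd86 and Irf5 also rose with both agents, and their ligand differences had intervals of -0.14 to 0.09 and -0.09 to 0.10.

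Prostaglandin genes diverged within their pathway, with 3 of 17 lower and 3 higher. Ptges, which makes prostaglandin E2, was 53.5 and 58.6 CPM with AmTARS, 168 and 246 CPM with Pam3CSK4 and 30.2 and 32.9 CPM untreated, a difference of -1.84 ± 0.10 (adjusted p = 8.27e-11). Ptgs2, the cyclooxygenase that acts before it, was 37.2 and 40.8 CPM with AmTARS, 79.1 and 102 CPM with Pam3CSK4 and 44.8 and 47.1 CPM untreated. Its AmTARS libraries lay below the untreated ones, a fall of -0.23 (adjusted p = 0.0305), whereas Pam3CSK4 raised it by 0.95. Ptger2, a receptor for prostaglandin E2, was higher with AmTARS by 0.37 ± 0.07 (adjusted p = 0.000597).

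Of 16 inflammasome and pyroptosis genes 9 were lower with AmTARS and 2 higher, with a median of -0.17. The sensor Nlrp3 stood at 111 and 119 CPM with AmTARS, 241 and 294 CPM with Pam3CSK4 and 94.6 and 89.7 CPM untreated, and differed by -1.21 ± 0.07 (adjusted p = 1.9e-10). Mefv, which encodes the sensor pyrin, differed by -1.14 ± 0.06. The spread was wide among apoptosis regulators, with 9 of 25 lower and 4 higher. Fas, a death receptor, was lower with AmTARS by -1.02 ± 0.10 and Cflar, an inhibitor of caspase 8, by -0.83 ± 0.05. Bmf, a death-promoting BH3 gene, was higher with AmTARS: 27.9 and 26.3 CPM against 16.8 and 13.04 CPM with Pam3CSK4 and 39.9 and 36.2 CPM untreated. The near-identical genes Bcl2a1a and Bcl2a1d gave -1.31 ± 0.12 and -0.93 ± 0.11, values that are uncertain where reads could be split between copies.

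Cell surface genes that report activation were mostly lower with AmTARS, as seen in 12 of 20 co-stimulation and adhesion genes with 1 higher. Icosl, the ligand of the T cell receptor ICOS, was 5.69 and 5.09 CPM with AmTARS and 5.11 and 4.72 CPM untreated, and 17.3 and 21.4 CPM with Pam3CSK4. The AmTARS and untreated libraries overlapped, and the Pam3CSK4 mean was 3.59-fold that of AmTARS. Cd40, a receptor for T cell help, was 8.39 and 6.96 CPM with AmTARS, 18.9 and 22.2 CPM with Pam3CSK4 and 4.48 and 4.55 CPM untreated. The adhesion molecule Icam1 differed by -1.14 ± 0.06. Receptors for chemoattractants and metabolites split into 12 lower and 10 higher of 27. Hcar2, a receptor for niacin and ketone bodies, was 11.5 and 11.8 CPM with AmTARS, 36.7 and 56.6 CPM with Pam3CSK4 and 7.17 and 7.04 CPM untreated, a difference of -1.89 ± 0.12. Gpr84, a receptor for medium-chain fatty acids, differed by -1.66 ± 0.11, the adenosine receptor Adora2a by -1.35 ± 0.09 and the formyl peptide receptor Fpr1 by -1.31 ± 0.08. Among 26 lectins, scavenger and Fc receptors 9 were lower and 5 higher. Olr1, a receptor for oxidised lipoproteins, differed by -1.44 ± 0.11, Clec4e, the receptor Mincle, by -1.32 ± 0.08 and Trem1, an amplifier of inflammation, by -1.17 ± 0.12. Mertk, which takes up dying cells and is also among the macrophage markers, was higher with AmTARS by 0.54 ± 0.08 (adjusted p = 7.08e-05).

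Other genes among the 15 with the widest gaps were of mixed function. Rasgrp1, an activator of Ras, was 2.53 and 2.52 CPM with AmTARS and 10.3 and 12.7 CPM with Pam3CSK4. Serpinb2, plasminogen activator inhibitor 2, was 27.1 and 28.7 CPM with AmTARS, 83.3 and 104 CPM with Pam3CSK4 and 24.02 and 25.4 CPM untreated. The AmTARS change of 0.17 did not pass (adjusted p = 0.105). Marcksl1, an actin-linked substrate of protein kinase C, was 209.9 and 202 CPM with AmTARS, 569.8 and 781 CPM with Pam3CSK4 and 94.4 and 101 CPM untreated. In the list of matrix, protease and coagulation genes that holds Serpinb2, 11 of 20 were lower with AmTARS and 1 was higher. F3, tissue factor, differed by -0.66 ± 0.12 and the gelatinase Mmp9 by -0.53 ± 0.05. Their changes with AmTARS against untreated cells did not pass (adjusted p = 0.529 and 0.316). Fn1, fibronectin, fell with both agents, by -0.44 with AmTARS and -0.46 with Pam3CSK4.

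Feedback genes of the MAP kinase and cytokine pathways were more often lower with AmTARS than higher. Over all genes tested 9.08% were lower with AmTARS and 8.04% higher, and 17.1% passed. Of 20 MAP kinase phosphatases and feedback genes 9 were lower with AmTARS and 4 higher (65% passed). Dusp16, a phosphatase of JNK and p38, was 15.1 and 15.7 CPM with AmTARS, 32.1 and 36.5 CPM with Pam3CSK4 and 14.99 and 17.1 CPM untreated, so that its AmTARS and untreated libraries overlapped. Spred1, an inhibitor of Ras signalling, differed by -0.65 ± 0.05. Among 28 JAK-STAT genes 7 were lower and 3 higher (35.7% passed). Socs3, the inhibitor of signalling by interleukin-6 family receptors, was 54.8 and 60.7 CPM with AmTARS, 165 and 194 CPM with Pam3CSK4 and 47.3 and 43.05 CPM untreated, a difference of -1.62 ± 0.07 (adjusted p = 1.71e-12). The kinase Jak2 was 70.3 and 79.2 CPM with AmTARS, 134 and 159 CPM with Pam3CSK4 and 72.6 and 75.1 CPM untreated. Of 10 mRNA decay factors 3 were lower and 2 higher (50% passed). The ribonuclease gene Zc3h12c differed by -1.22 ± 0.08, whereas Zfp36l1 and Zfp36l2, which bind AU-rich mRNA, were higher with AmTARS by 0.34 ± 0.05 and 0.43 ± 0.07. Both of the latter fell with either agent and fell further with Pam3CSK4. Of 23 immediate-early genes 6 were lower and 1 was higher at 3 h (30.4% passed). Maff, a small MAF factor, was 6.93 and 8.32 CPM with AmTARS and 16.7 and 21.5 CPM with Pam3CSK4, and Fos was 74.7 and 76.4 CPM and 74.4 and 70.5 CPM.

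The 15 genes with the largest higher values with AmTARS were chosen by the 3 h difference, with libraries apart. Low levels with Pam3CSK4 are therefore favoured by the choice. Pam3CSK4 lowered all 15 from the untreated level, and AmTARS lowered 7 and raised 1, Scd2. Over all genes tested Pam3CSK4 lowered 24.2%, and AmTARS lowered 17.9% and raised 18.8%. Rgs2, which shuts off G-protein signalling (chr1:143999338-144004161, - strand), was 122 and 114 CPM with AmTARS, 57.7 and 48.98 CPM with Pam3CSK4 and 113 and 120.3 CPM untreated. All AmTARS libraries lay above the Pam3CSK4 ones and the difference was 1.14 ± 0.07 (adjusted p = 1.04e-10), a 2.21-fold higher mean. Arrdc3, an arrestin-domain adaptor that directs receptors to degradation (chr13:80883384-80896042, + strand), was 35.7 and 35.2 CPM with AmTARS, 15.3 and 16.6 CPM with Pam3CSK4 and 37.3 and 36.2 CPM untreated. The AmTARS change of -0.05 ± 0.07 did not pass (adjusted p = 0.574), while Pam3CSK4 lowered the gene by -1.16. Rnf144b, an E3 ubiquitin ligase, was 23.97 and 23.1 CPM with AmTARS, 11.6 and 9.32 CPM with Pam3CSK4 and 33.1 and 31.4 CPM untreated. These 3 genes made up all those at least 2-fold higher with AmTARS.

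Engase, a glycosidase that frees N-glycans, was 20.8 and 19.3 CPM with AmTARS, 11.96 and 8.96 CPM with Pam3CSK4 and 21.5 and 20.8 CPM untreated. Tsc22d3, the glucocorticoid-induced leucine zipper GILZ, was 54.1 and 54.8 CPM with AmTARS, 34.6 and 29.9 CPM with Pam3CSK4 and 58.7 and 55.8 CPM untreated. Sesn1, a sestrin that restrains the growth kinase mTORC1, was 50.9 and 49.5 CPM with AmTARS, 31.9 and 27.5 CPM with Pam3CSK4 and 50.9 and 50.95 CPM untreated. In each of them both Pam3CSK4 libraries lay below all AmTARS and untreated libraries. Mtus1, Enc1, Zfp395, Fam214a, Slc46a3 and Lbh completed the 15, with differences between 0.75 for Lbh and 0.86 for Mtus1. Without Pam3CSK4 replicate 3 Mtus1 was 0.59 and Enc1 0.57, against 0.86 and 0.80 with it, and both passed.

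**Figure D3:**
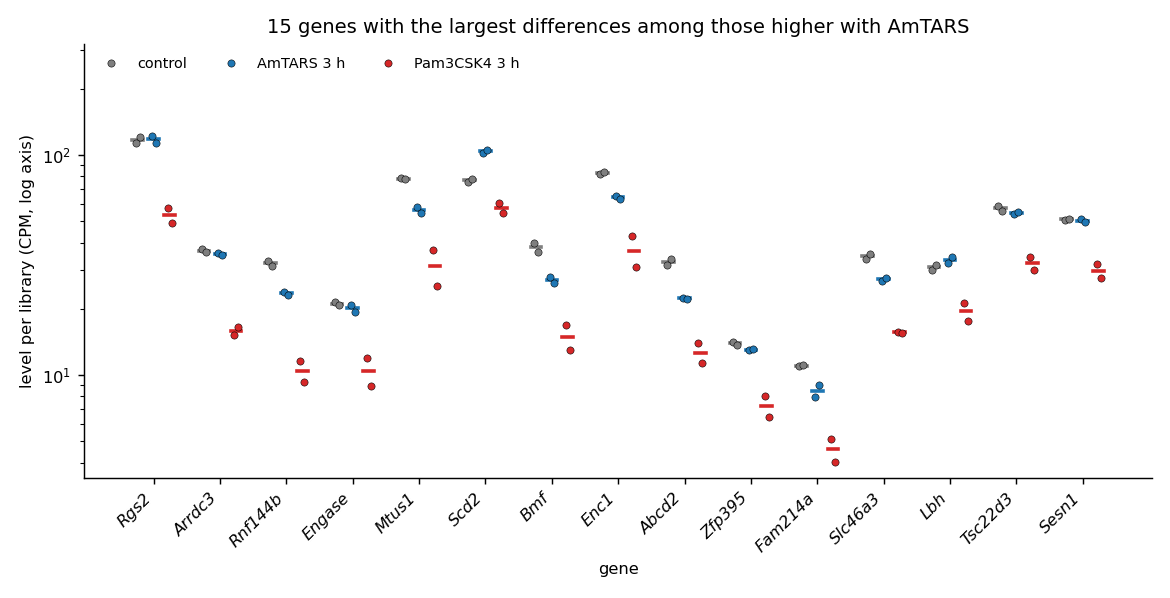
Level of 15 genes (CPM, log axis) in untreated cells (grey), AmTARS at 3 h (blue) and Pam3CSK4 at 3 h (red); points are the 2 libraries of each group and bars their mean. Both blue points lie above both red points in all 15 genes, which the choice of genes required. For Arrdc3 the blue and grey points lie close together, and in Scd2 the blue points lie above the grey ones and the red ones below.

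Genes of sterol synthesis and uptake had the highest list median. In this list 14 of 24 genes were higher with AmTARS and none was lower, with a median of 0.25. AmTARS raised 22 of them above untreated cells and Pam3CSK4 15, with medians of 0.39 and 0.22. Lss, which closes the sterol ring, was 34.8 and 37.1 CPM with AmTARS, 25.3 and 24.3 CPM with Pam3CSK4 and 27.8 and 27.2 CPM untreated, a difference of 0.52 ± 0.06 (adjusted p = 3.1e-06). Sqle, the enzyme before it, rose with both agents, to 66.7 and 68.2 CPM with AmTARS and 51.2 and 50.9 CPM with Pam3CSK4 from 43.1 and 44.1 CPM. Dhcr7, which finishes cholesterol, differed by 0.44 ± 0.06 and mevalonate kinase, Mvk, by 0.40 ± 0.07.

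Fatty acid genes were more divided, with 8 of 19 higher with AmTARS and 3 lower. Scd2, a stearoyl-CoA desaturase that makes monounsaturated fatty acids, was 102 and 106 CPM with AmTARS, 60.4 and 54.4 CPM with Pam3CSK4 and 75.5 and 77.9 CPM untreated. The 3 groups did not overlap: AmTARS raised it by 0.43 (adjusted p = 1.56e-05), Pam3CSK4 lowered it by -0.41 (adjusted p = 3.61e-06), and the ligands differed by 0.85 ± 0.05 (adjusted p = 4.17e-10). Acsl3, an acyl-CoA synthetase, moved likewise, by 0.32 and -0.33. Its relative Acsl1 was lower with AmTARS, at 221 and 237 CPM against 428 and 541 CPM with Pam3CSK4 and 155 and 157 CPM untreated. Srebf1, a regulator of lipid synthesis genes, differed by 0.01 ± 0.06, with an interval of -0.12 to 0.13. Among 13 LXR targets and efflux genes 4 were higher and 3 lower. Abcd2, a peroxisomal fatty acid transporter, was 22.4 and 22.3 CPM with AmTARS, 13.9 and 11.3 CPM with Pam3CSK4 and 31.6 and 33.6 CPM untreated. Abca1, the cholesterol exporter, was lower with AmTARS by -0.66 ± 0.06 (adjusted p = 4.64e-08).

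Interferon-stimulated genes held members on both sides. Of 37 tested 12 were higher with AmTARS and 4 lower, with a median of 0.10. Ifit3, an antiviral RNA-binding gene, was 186 and 188 CPM with AmTARS, 136 and 132 CPM with Pam3CSK4 and 166 and 162 CPM untreated. Ifit2 differed by 0.44 ± 0.08, and values of Ifit3 are uncertain where reads could be shared with its near copy Ifit3b. The guanylate-binding genes Gbp2 and Gbp5 went the other way, with -0.50 ± 0.08 for Gbp2 and -0.98 ± 0.12 for Gbp5. Gbp5 was 4.69 and 5.81 CPM with AmTARS, 10.4 and 12.3 CPM with Pam3CSK4 and 4.77 and 5.64 CPM untreated, so that AmTARS and untreated libraries overlapped. Isg15, a ubiquitin-like modifier, rose with both agents and its ligand difference had an interval of -0.23 to 0.06.

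Of 13 markers of the alternative (M2) state 1 was higher with AmTARS and 2 were lower, with a median of 0.06. The share that passed was 23.1%, against 17.1% of all genes tested. Klf4 was the higher one, by 0.33, and by 0.32 without AmTARS replicate 1. Tgm2, among the lower ones at -0.20, did not pass without the intensity trend and was -0.14 without Pam3CSK4 replicate 3. Arg1, arginase 1, was 32.9 and 35.3 CPM with AmTARS, 37.9 and 35.9 CPM with Pam3CSK4 and 27.2 and 27.3 CPM untreated, a ligand difference of -0.11 ± 0.08 (adjusted p = 0.425). Mrc1, the mannose receptor, fell with both agents, to 70.1 and 73.4 CPM with AmTARS and 68.5 and 65.1 CPM with Pam3CSK4 from 84.7 and 85.4 CPM. Its ligand difference had an interval of -0.01 to 0.21. In the list for interleukin-10 control and CREB, 2 of 18 genes were higher with AmTARS and 3 lower (27.8% passed). Creb5, among the lower ones at -0.32 (limma, adjusted p = 0.0486), did not pass with CPM rescaled to the listed genes or without the intensity trend. Without AmTARS replicate 1 Creb5 was -0.14. Maf, among the higher ones at 0.28, was 0.18 without Pam3CSK4 replicate 3. The CREB family genes Creb1 and Crem had ligand differences of -0.15 ± 0.06 (adjusted p = 0.102) and -0.07 ± 0.07 (adjusted p = 0.589), with intervals of -0.28 to -0.02 and -0.22 to 0.08. Sik1, a kinase that restrains CREB co-activators, was higher with AmTARS by 0.48 ± 0.08, and Pde4b, which degrades cyclic AMP, was lower by -0.62 ± 0.10. In the PI3K-AKT list 2 of 22 were higher and 4 lower (27.3% passed), and of the lower ones Rictor (-0.30) did not pass without the intensity trend. Of the PI3K catalytic genes Pik3cg was lower by -0.48 ± 0.06 and Pik3cd higher by 0.31 ± 0.06.

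Transcription factors of macrophages were split, with 11 of 34 lower and 9 higher with AmTARS. Ets2 was 111 and 115 CPM with AmTARS, 246 and 305 CPM with Pam3CSK4 and 81.7 and 77.8 CPM untreated, a difference of -1.27 ± 0.07. Batf, an AP-1 family factor, differed by -0.63 ± 0.09 and Hivep3 by -1.06 ± 0.16.

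In metabolism, 9 of 25 glycolysis and HIF-1 genes were lower with AmTARS and 1 was higher. The glucose transporter Slc2a1 was 145 and 156 CPM with AmTARS, 219.8 and 276 CPM with Pam3CSK4 and 112 and 108 CPM untreated. Hif1a, the hypoxia-inducible factor itself, differed by -0.53 ± 0.06. Slc7a11, the cystine transporter that is counted both as an NRF2 target and as an ATF4 gene, was 83.03 and 85.7 CPM with AmTARS, 199 and 251 CPM with Pam3CSK4 and 67.7 and 73.1 CPM untreated. Its list of NRF2 targets had 5 of 20 genes lower (25%), and the ATF4 list 7 of 23 (30.4%), with none higher in either. Idh1, the cytosolic isocitrate dehydrogenase, was higher with AmTARS by 0.32 ± 0.05. In the tricarboxylic acid cycle list 2 of 23 were higher and 1 was lower, a smaller share than the 17.1% of all genes that passed. The calls of Aco1 (0.20) and Dld (-0.19) in that list were lost without the intensity trend. Dld did not pass after quantile normalization either. Among metal genes, with 4 of 13 higher and 2 lower, metallothionein Mt1 was 175 and 156 CPM with AmTARS, 117 and 134 CPM with Pam3CSK4 and 86.9 and 94.4 CPM untreated. Both agents raised it and AmTARS more so, by 0.40 ± 0.06 (adjusted p = 8.74e-05). Slc40a1, the iron exporter ferroportin, differed by 0.40 ± 0.06.

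Several housekeeping lists changed from the untreated level with both agents and showed few or no differences between them. Their changes from untreated cells were not repeated list by list under the alternatives. With length and GC corrected, AmTARS against untreated cells gave 2439 genes in all, against 4186 as reported. All 29 cytosolic ribosomal protein genes tested rose with AmTARS and 26 with Pam3CSK4, and none passed between the ligands (median 0.02). Rps14 rose by 0.38 with AmTARS and 0.39 with Pam3CSK4, with an interval of -0.12 to 0.12 for the difference. Of 31 oxidative phosphorylation genes 27 rose with each agent and 1, Cycs, was lower with AmTARS, by -0.22 ± 0.06. That call was lost without Pam3CSK4 replicate 3 (adjusted p = 0.265) and without AmTARS replicate 3 (adjusted p = 0.203). Of 33 proteasome genes 27 rose with AmTARS, 31 with Pam3CSK4 and 3 were lower with AmTARS than with Pam3CSK4. Of these 3, Psma6 (-0.24) and Psmb6 (-0.22) did not pass after quantile normalization, without the intensity trend, without AmTARS replicate 3 or without Pam3CSK4 replicate 3. None of 21 cytosolic aminoacyl-tRNA synthetase genes passed in the ligand comparison, but Farsb (adjusted p = 0.0533) and Hars (adjusted p = 0.0525) were near the threshold and passed under several alternatives, voom on the recovered reads among them. Tars, the mouse threonyl-tRNA synthetase, was 46.9 and 46.5 CPM with AmTARS, 45.9 and 48.9 CPM with Pam3CSK4 and 46.2 and 44.8 CPM untreated. Its ligand difference was -0.02 ± 0.06, with an interval of -0.14 to 0.10. In the MHC class II list 1 of 10 was higher (10%, against 17.1% of all genes that passed) and none lower. It was H2-DMa, with 0.21, and 0.16 without Pam3CSK4 replicate 2. H2-Ab1 rose by 0.34 and 0.41.

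Read against the 17.1% of all genes that passed, the unfolded protein response had 4 of 18 lower (22.2%), led by Herpud1 at -0.74 ± 0.06. Of the others, Manf did not pass after quantile normalization or without the intensity trend. Creld2 did not pass in the 4 libraries of the 3 h ligand groups alone. Hspa5 was -0.14 without Pam3CSK4 replicate 3, against -0.23 with it. Heat shock genes had 2 of 13 lower and 1 higher (23.1%), and 11 of the 13 did not pass for AmTARS against untreated cells. Bag3, the higher one at 0.19, did not pass without the intensity trend. The lysosome had 2 of 26 lower and 3 higher (19.2%), ribosome biogenesis 2 of 30 lower (6.67%) and the cell cycle 1 of 30 lower and 3 higher (13.3%). Of the ribosome biogenesis genes Ltv1 (-0.22) did not pass without the intensity trend or with CPM rescaled to the listed genes.

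**Figure D4:**
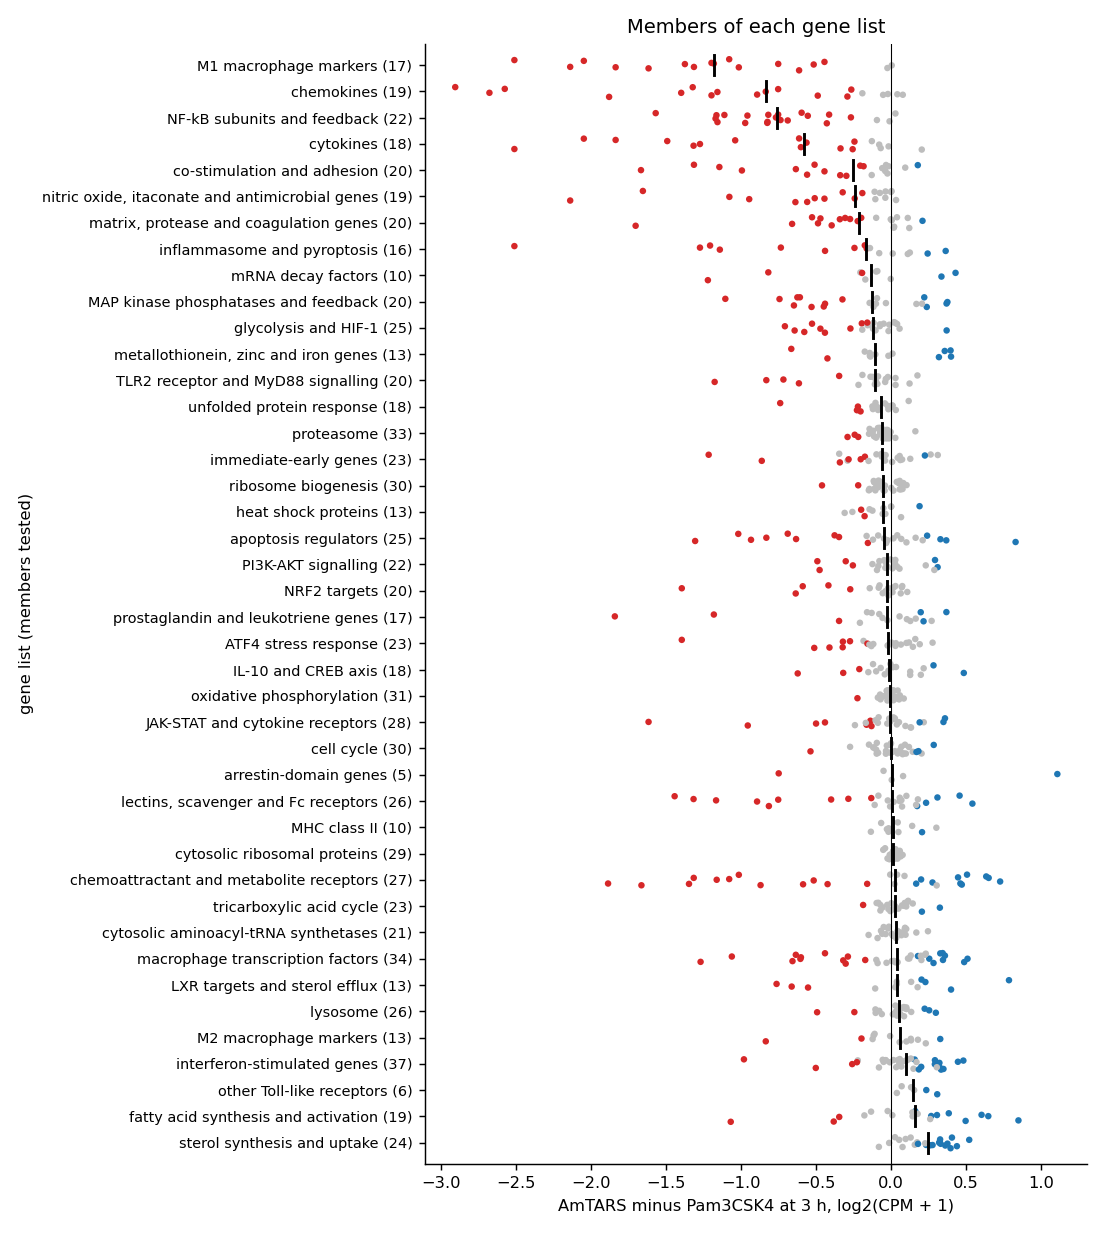
Each point is a member of a gene list, placed by its difference AmTARS minus Pam3CSK4 at 3 h on the log2(CPM + 1) scale; red and blue points passed as lower and higher with AmTARS, grey points did not pass, and black bars are list medians. Medians run from -1.18 for M1 markers to 0.25 for sterol synthesis, and the ribosomal protein and tRNA synthetase rows hold grey points alone.

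At 1 h the ligands were compared in other libraries, which share none with the 3 h groups. There 21 genes passed (0.184%), of which 20 were lower with AmTARS. The count was 33 or 34 when Pam3CSK4 3 h replicate 2 or 3 was left out, since these libraries enter the shared spread. They were Cxcl2, Egr1, Tnf, Cxcl1, Tnfsf9, Txnip, Zfp36, Socs3, Dusp1, Nfkbiz, Dusp2, Ier3, Arrdc4, Fos, Nfkbia, Csrnp1, Tnfaip3, Nfkbid, Id3 and Btg2, while the zinc exporter Slc30a1 was higher. The 1 h genes are all listed because they passed, in addition to those named by rule. Of the 79 genes at least 2-fold lower at 3 h, 8 passed at 1 h and 59 had a negative difference there, against 50.8% of all genes tested.

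The change of the ligand difference from 1 h to 3 h was tested by an interaction term, which 1049 genes passed (9.2%), or 675 without AmTARS 3 h replicate 1. Cxcl3 had hardly parted at 1 h, with 33.3 and 30.6 CPM with AmTARS and 35.7 and 34.7 CPM with Pam3CSK4, and its difference then grew by -2.44 ± 0.15 (adjusted p = 4.52e-09). Tnf had already parted, at 63.99 and 71.7 CPM with AmTARS and 165 and 165 CPM with Pam3CSK4 at 1 h. Its difference went from -1.27 to -2.05, a change of -0.78 ± 0.10. Tnfsf9, the ligand of 4-1BB, differed by -1.03 at 1 h and -1.04 at 3 h, with a 95% interval of -0.27 to 0.26 for the change.

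Some early differences had shrunk by 3 h. Egr1, an immediate-early transcription factor, was 6.67 and 8.29 CPM with AmTARS and 21.6 and 20.1 CPM with Pam3CSK4 at 1 h, and 8.06 and 8.06 CPM and 7.41 and 7.83 CPM at 3 h. The groups were apart at 1 h and the difference changed by 1.44 ± 0.13 (adjusted p = 2.68e-07). Zfp36, which encodes the mRNA decay factor tristetraprolin, went from a difference of -0.80 to -0.09. Txnip, an inhibitor of thioredoxin, was 229.8 and 232 CPM with AmTARS and 421 and 420.3 CPM with Pam3CSK4 at 1 h, against 463 and 452 CPM untreated. By 3 h it was 369 and 361 CPM and 379 and 377 CPM. Fos, Csrnp1 and Btg2 were likewise past the threshold at 1 h and not at 3 h, and each passed the test of the change.

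**Figure D5:**
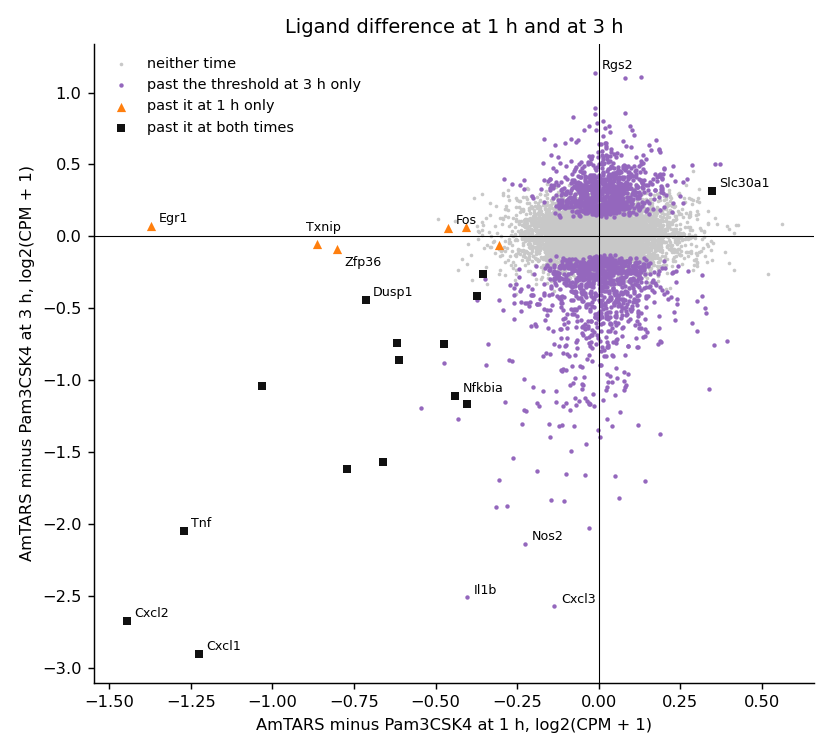
Each point is a gene, with the difference AmTARS minus Pam3CSK4 at 1 h on the x axis and at 3 h on the y axis, both on the log2(CPM + 1) scale; symbols mark genes past the threshold at 3 h only, at 1 h only, at both times or at neither. Most genes with wide gaps at 3 h lie near 0 at 1 h, Cxcl1, Cxcl2 and Tnf are low on both axes, and Egr1, Zfp36, Txnip and Fos are low on the x axis alone.

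Among marker genes of other cell types, Ccr7, the only dendritic cell marker tested, was lower with AmTARS by -0.52 ± 0.09 (adjusted p = 0.000173). All 8 neutrophil genes had negative differences, from -0.06 for Mpo to -0.29 for Camp, and S100a9 and Camp passed. None of 6 fibroblast genes passed, and of the macrophage markers Cd14 and Adgre1 were lower and Mertk and Fcgr1 higher. The part of these cells in the results was not tested. Across 11360 genes with a known transcript length, Spearman's rho of the 3 h ligand difference was -0.01 with length and 0.13 with GC content, given as a description of genes that are not independent.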

How the data were processed

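Libraries were poly-A selected RNA. Reads were aligned with STAR 2.5.1 to mm10 and handled further in R 3.3.0, as listed in the submitters' processing notes. For the counter, annotation and scaling, details are not given in the sources used here. What the authors deposited was a table of log2(CPM + 1) values for 11617 gene symbols in 10 libraries, with 27398791 to 37559810 reads each in the listed genes. A single factor per library turned 100% of the deposited log2 values into whole reads (within 0.1 read). The lowest count was 3 reads and no value was 0, so genes without reads in some library are not analysed here.

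Each gene averaging 1 CPM or more was fitted with limma 3.58.1 in R 4.3.3, 1 mean per group, with an intensity trend. There were 5 residual and 14.7 prior degrees of freedom. P-values were two-sided and adjusted by Benjamini-Hochberg over all 11407 genes, and the threshold was 0.05. SE is the moderated standard error of a log2 difference, and intervals are 95%. All 5 groups share 1 spread per gene, which can understate the SE of a more variable group. Differences on the log2(CPM + 1) scale understate changes of low genes. Fold values are ratios of mean CPM.

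The rule for named genes took the 15 largest differences in each direction (at least 5 CPM in the higher group, libraries apart, without Gm, LOC, Mir, Snor and Rik symbols). It also took 13 set genes, the 4 largest members of each gene list and up to 2 members per list that changed alike. Genes named outside it were chosen after their values were seen. The comparison, its lists and tests were chosen with earlier results of these data known. Whether replicate numbers pair the samples is not given in the labels. Same-numbered libraries deviated together with correlations of both signs. With 2 libraries a group the deviations mirror each other, so these correlations cannot decide it. The 3 h groups share only number 3. Promoter windows are RefSeq GRCm38.p6, with 1 window per gene, and positions and lengths are GENCODE M21. The calculation was tested on simulated data. Alternatives covered filters, pseudocounts, scalings, spread estimates, a replicate block, a length and GC correction, voom on the recovered reads and leaving out each library. Figures were drawn with matplotlib 3.10.9.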

Additional observations from a re-analysis of the deposited data

Results flagged for a closer look

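The ligand difference itself changed from 1 h to 3 h in 1049 of the genes tested, by the interaction term of the limma model (adjusted p below 0.05 over all genes). Values below are the difference AmTARS minus Pam3CSK4 at 3 h minus the same difference at 1 h, on the log2(CPM + 1) scale, for the genes named by rule or past the threshold at 1 h whose interaction passed. Negative values mean that the difference AmTARS minus Pam3CSK4 was more negative at 3 h than at 1 h.

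The 15 genes with the largest lower values under AmTARS at 3 h were chosen by the 3 h difference, which enters the change, so its negative sign in all 15 is largely fixed by the choice. The change was -1.68 for Cxcl1, -1.23 for Cxcl2, -2.44 for Cxcl3, -2.11 for Il1b, -1.91 for Nos2, -0.78 for Tnf, -1.57 for Hcar2 and -1.60 for Ccl3. It was -1.73 for Ptges, -1.69 for Il6, -1.88 for Rasgrp1, -1.84 for Serpinb2, -1.39 for Marcksl1, -1.71 for Icosl and -1.62 for Gpr84.

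The same holds for the positive sign in the 15 genes with the largest higher values. The change was 1.15 for Rgs2, 0.98 for Arrdc3, 1.02 for Rnf144b, 0.90 for Engase, 0.78 for Mtus1, 0.86 for Scd2, 0.91 for Bmf and 0.79 for Enc1. It was 0.79 for Abcd2, 0.74 for Zfp395, 0.80 for Fam214a, 0.67 for Slc46a3, 0.73 for Lbh, 0.64 for Tsc22d3 and 0.75 for Sesn1.

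Among the other genes the change was negative, with -0.65 for Cxcl10, -1.11 for Tlr2, -0.84 for Socs3, -0.91 for Nfkbiz, -0.28 for Arrdc4, -0.67 for Nfkbia and -0.77 for Tnfaip3. It was positive, with AmTARS below Pam3CSK4 at 1 h and the gap smaller at 3 h, in 6 early genes, with 1.44 for Egr1, 0.81 for Txnip, 0.71 for Zfp36, 0.52 for Fos, 0.47 for Csrnp1 and 0.24 for Btg2. The adjusted p of the change was 0.0496 for Arrdc4, 0.0481 for Cxcl10 and 0.0466 for Btg2, all near the threshold.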

How the results depend on the processing

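The ligand comparison at 3 h gave 1953 genes as reported and 1547 to 2450 genes under the alternatives that kept all libraries. Leaving out a library gave 1141 to 2103 genes, and the lowest counts were without Pam3CSK4 3 h replicate 3 (1141) and without AmTARS 3 h replicate 1 (1193). The same sets gave 450 to 1047 genes higher and 670 to 1058 lower with AmTARS, 57 to 101 at least 2-fold lower and 2 to 7 at least 2-fold higher. With a pseudocount of 5 the 2-fold counts were 52 lower and 1 higher, and voom on the recovered reads gave 7 higher. AmTARS against untreated cells gave 1997 to 4438 genes when a library was left out and 2439 with length and GC corrected. The 1 h comparison gave 15 to 34 genes and the change of the ligand difference 675 to 1333 when a library was left out, and the latter 680 without the intensity trend. The leave-outs also held fewer samples, and the cause of these shifts in the counts was not tested.

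With the replicate number as a block, 1793 genes passed between the ligands at 3 h, 2017 for AmTARS against untreated cells and 672 for the change of the ligand difference. Whether same-numbered libraries belong together is not known, so a call lost there is not read as a weaker effect. No result rests on this block.

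Of 150 named genes that passed between the ligands, 20 did not pass under at least 1 alternative, in 78 of the gene and setting combinations, and none changed sign while passing. Of 99 named genes that did not pass, 23 passed under some alternative. Genes whose call was lost include Il12b, Tlr8, Tgm2, Creb5, Klf4 and Cycs. Depth limits genes near 1 CPM, such as Il10 with 16 to 41 reads in the 3 h libraries.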
